A study of Mus musculus with 8 samples.

Results

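Emx1, Emx2, Six3, Otx1, Lhx2, Lhx5, Rax, Dlx1 and Dlx2 are transcription factors that pattern the embryonic forebrain, and their mRNAs were followed here through the in vitro neuralization of mouse embryonic stem (ES) cells. They were chosen by gene name. Each of the 9 was represented by 1 probe in 1 spot per array, out of 36163 gene names and 55681 probes. All 9 were measured on all 8 arrays, none of their spots was irregular or saturated, and no member was left out. The cells were E14Tg2A ES cells (mouse strain 129/Ola), kept with serum and leukemia inhibitory factor (LIF) as the undifferentiated stage at 0 days in vitro (DIV). In chemically defined medium with N2/B27 without vitamin A they were grown as floating epiblast-like aggregates (ELA, 2 DIV) and then attached to laminin as neural progenitor cells (NPC, 6 DIV). After a further dissociation they were kept without B27 as neural precursors (NPC/Neu, 10 DIV). At each stage 1 one-color array was hybridized with total RNA and 1 with Ago–RNA, the RNA recovered from the cytosol with the anti-pan Ago antibody 2A8. Each array received RNA pooled from 3 experiments. No condition had a replicate array, so no test was possible and no p-value is given. All stages come from the same line, and each is a bulk culture: fewer cells of a type and less RNA per cell cannot be told apart.

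These genes encode homeodomain proteins that divide the anterior neural plate into territories. Six3 and Rax mark its most anterior part and the eye field, Otx1 the forebrain and midbrain, Emx1, Emx2 and Lhx2 the dorsal telencephalon from which the cortex forms, and Dlx1 and Dlx2 the ventral telencephalon, where they drive the production of GABAergic interneurons. Lhx5 is expressed in the anterior neural plate and later in the hypothalamus and in Cajal-Retzius cells. Ago proteins carry miRNAs to target mRNAs, so the share of an mRNA that is recovered with Ago is read as its loading into the silencing complex RISC.

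Signals were background corrected and quantile normalized over the 8 arrays, and all levels are log2 values of one probe compared with itself between arrays. A change was counted as a rise or a fall at a log2 difference of at least 1, which is 2-fold. Where the scanner software marked a probe as not well above background on one of the arrays compared, only a bound is given. The brighter value was then set against the higher of the dim probe's own value and the lowest signal of any probe well above background on that array. These lowest signals lay between log2 6.70 and 7.02. On each array between 53.4% and 61.2% of the spots were well above background. The noise between spots came from 399 probes printed 10 times each. For a change in total RNA its SD was 0.17 to 0.25 for probes below log2 8, 0.12 to 0.17 between 8 and 10, and 0.07 to 0.08 above 10. This SD leaves out all variation between cultures. Markers followed the labels: all 7 pluripotency genes fell from ES to NPC, among them Pou5f1 from log2 15.21 to 7.98, and 9 of 10 neural progenitor markers rose, among them Fabp7 from 6.96 to 15.46. The exception among the progenitor markers was Sox2, at 13.75 and 13.64. From NPC to NPC/Neu 2 of the 7 pluripotency genes rose again, Esrrb from 9.59 to 11.55 and Zfp42 from 8.71 to 9.76. All 7 were still at least 2-fold lower in NPC/Neu than in ES.

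The probes lay in or at the edge of the 3′ UTRs. In the mm9 annotation (GENCODE), 8 of the 9 probes matched the 3′ UTR, and the Emx1 probe ran from the end of the coding sequence into it. No probe sequence was found in a coding transcript of another gene. Six3 (chromosome 17, 86012948 to 86031153) had its probe 2925 bases before the end of the transcript, and the Rax probe lay 38 bases before the end of its transcript. For Six3, Otx1, Lhx2 and Dlx1 the probe was found in only some of the annotated coding transcripts (2 of 4, 1 of 3, 1 of 4 and 1 of 5), so other isoforms were not seen.

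Emx1 and Emx2 had their main rise between ELA and NPC. Total RNA of Emx2, a homeobox gene that sets up cortical area identity (chromosome 19, 59533180 to 59539847, plus strand), was log2 6.57 in ES, 6.15 in ELA, 11.35 in NPC and 11.26 at NPC/Neu. Both early values were not well above background and both neural values were far above them. Emx2 was at least 24.5-fold higher in NPC than in ES and at least 21.0-fold higher than in ELA, and the difference of 0.09 between NPC and NPC/Neu was within 2 spot SD. Emx1, its close relative in cortical progenitors (chromosome 6, 85137432 to 85154456, plus strand), was log2 7.15, 6.82, 9.56 and 8.96 in the same order. It was at least 6.08-fold higher in NPC than in ELA and highest in NPC. From NPC to NPC/Neu it went down by 1.52-fold, less than the 2-fold rule and more than 2 spot SD. The paralogs thus shared the step at which they rose, while Emx1 alone of the pair was lower in NPC/Neu by more than the spot noise.

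Lhx2 rose at every step, starting with ELA. This LIM-homeodomain gene, needed for cortex and eye (chromosome 2, 38194801 to 38225253, plus strand), was log2 7.47 in ES, 9.65 in ELA, 12.80 in NPC and 14.46 at NPC/Neu in total RNA, well above background on every array. The rise was 4.51-fold into ELA, 8.90-fold into NPC and 3.17-fold into NPC/Neu, and was 127-fold higher in NPC/Neu than in ES. Lhx5, the second LIM-homeodomain gene (chromosome 5, 120881895 to 120891466, plus strand), was log2 6.92, 7.87, 12.37 and 13.88. Its main step was a 22.7-fold rise from ELA to NPC, followed by a 2.85-fold rise, and it was at least 125-fold higher in NPC/Neu than in ES. At the ELA stage Lhx5 was at least 1.93-fold above ES, just short of the rule. Otx1, of the orthodenticle family (chromosome 11, 21894767 to 21902900, minus strand), was log2 6.65, 6.64, 8.71 and 9.62. It was at least 3.91-fold higher in NPC than in ES, and the further difference of 0.91 into NPC/Neu was more than 2 spot SD and less than 2-fold.

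**Figure D1:**
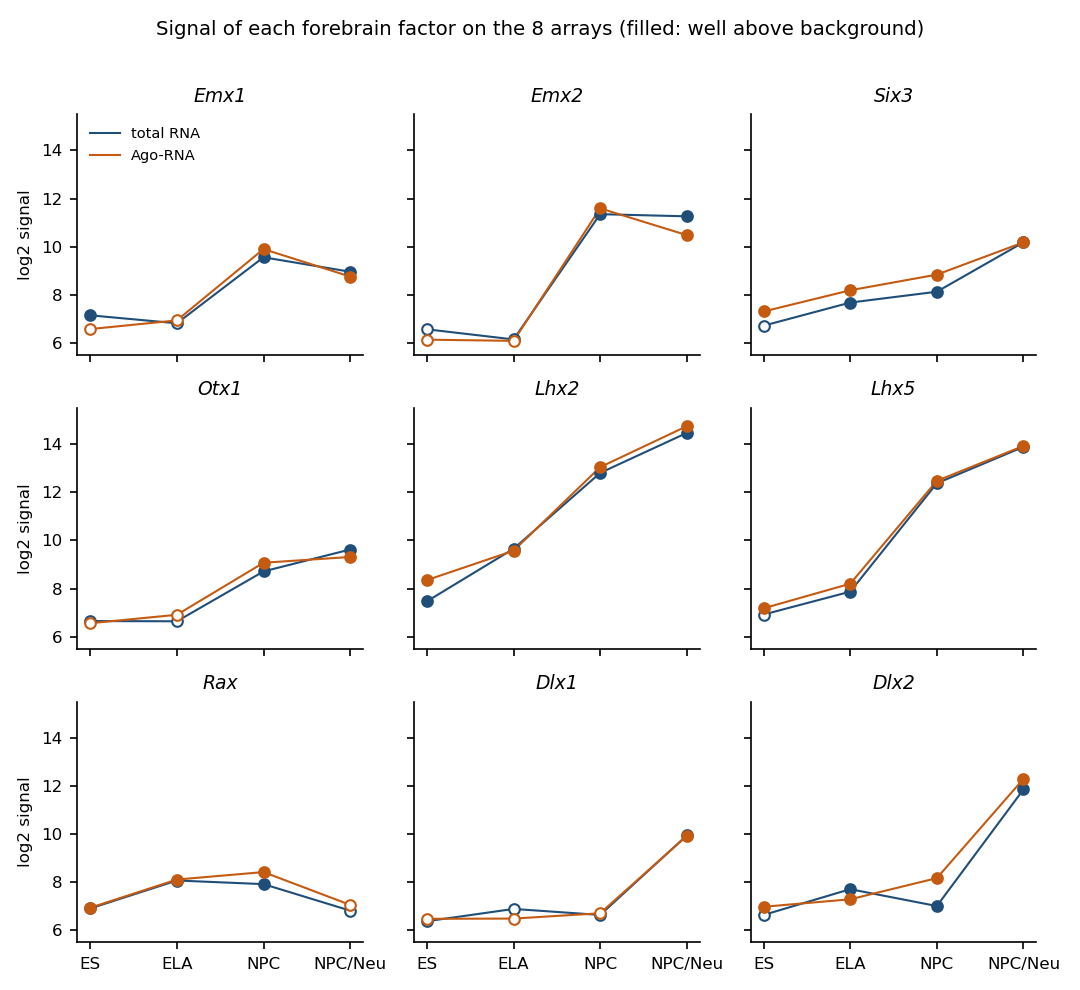
Log2 signal of each of the 9 factors (vertical axis) at the 4 stages (horizontal axis) in total RNA (blue) and Ago–RNA (orange), 1 array per point, with filled points well above background and open points not. Lhx2 climbs at every stage from log2 7.47 to 14.46 in total RNA, Emx2 steps up once to 11.35 in NPC, Dlx1 and Dlx2 are high in NPC/Neu (9.94 and 11.85), and Rax stays between 6.82 and 8.07.

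Six3, which represses Wnt signaling at the anterior end of the neural plate, moved in stages. Its total RNA was log2 6.72 in ES, 7.68 in ELA, 8.13 in NPC and 10.18 at NPC/Neu. The value in ES was not well above background, ELA and NPC differed by 0.44, and NPC/Neu stood 4.14-fold above NPC. From ES to ELA the difference was at least 1.92-fold and from ES to NPC/Neu at least 10.8-fold. Rax, the eye field and hypothalamic homeobox gene on chromosome 18, behaved differently from the other members. It was log2 6.91 in ES, 8.07 in ELA, 7.92 in NPC and 6.82 at NPC/Neu, where it was no longer well above background. It rose 2.23-fold into ELA, differed by 0.16 between ELA and NPC, within 2 spot SD, and was at least 2.13-fold higher in NPC than in NPC/Neu. Its difference from ES to NPC, 1.00, lay at the limit of the 2-fold rule.

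The Dlx genes had their main rise at the last step. Dlx1 and Dlx2 lie 9.4 kb apart on chromosome 2 and are transcribed toward each other (Dlx1 from 71366170 to 71372038 on the plus strand, Dlx2 from 71381466 to 71384811 on the minus strand). Dlx1 was log2 6.38, 6.89, 6.64 and 9.94 in total RNA, and only the NPC/Neu value was well above background. It was at least 9.14-fold higher there than in NPC. Dlx2 was log2 6.64 in ES, 7.71 in ELA, 7.01 in NPC and 11.85 at NPC/Neu. The last step was a 28.6-fold rise with both arrays well above background. Earlier, Dlx2 was at least 1.95-fold higher in ELA than in ES (2.10-fold as measured, which counts as a rise) and 1.62-fold lower in NPC than in ELA. The Dlx1 probe lies inside the span of the antisense transcript Dlx1as, which runs on the opposite strand.

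Most neuronal markers also rose at the last step. Of 10 neuronal markers 9 rose from NPC to NPC/Neu, and their summed signal on the linear scale was 46790 in ES, 38542 in ELA, 71054 in NPC and 292308 at NPC/Neu. In the same order, the 10 progenitor markers summed to 39816, 71874, 380240 and 607952. The neuronal sum came mostly from the brightest probes, Tubb3, Nefl and Stmn2 (log2 17.01, 16.03 and 15.73 in NPC/Neu). Stmn2 was already at 14.44 in ES. These sums add probes of unlike brightness and do not measure the share of neuronal RNA. Whether the rises of Six3, Dlx1 and Dlx2 belong to a growing share of neuronal RNA was not tested.

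Counted over all members, 3 of 9 rose from ES to ELA (Lhx2, Rax and Dlx2), where 3.07% of all gene names did. With a background offset of 0 or the scanner's processed intensity the count at this step was 6. From ELA to NPC 5 rose (Emx1, Emx2, Otx1, Lhx2 and Lhx5) against 7.16% of all gene names, and from NPC to NPC/Neu again 5 (Six3, Lhx2, Lhx5, Dlx1 and Dlx2) against 3.66%. Lhx2 was counted at each of the 3 steps. The only member counted as falling at a step was Rax from NPC to NPC/Neu, where 2.70% of all gene names fell. Other falls were counted under some alternatives only. They were Dlx2 from ELA to NPC (-1.01 with an offset of 0, -1.31 and -1.36 with processed intensity by quantile and by the 75th percentile) and, with total RNA not well above background on at least 1 of the arrays compared, Dlx1 from ELA to NPC (-2.03 and -2.52 with processed intensity), Emx1 from ES to ELA (-1.29 and -1.24) and Emx2 from ES to ELA (-1.11 with an offset of 0). Against ES, 7 members were higher in NPC, all but the Dlx pair, beside 9.11% of all gene names. In NPC/Neu 8 were higher, all but Rax, beside 11.3% of all gene names. The members were chosen as neural genes, so a larger share than the background is no independent result.

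**Figure D2:**
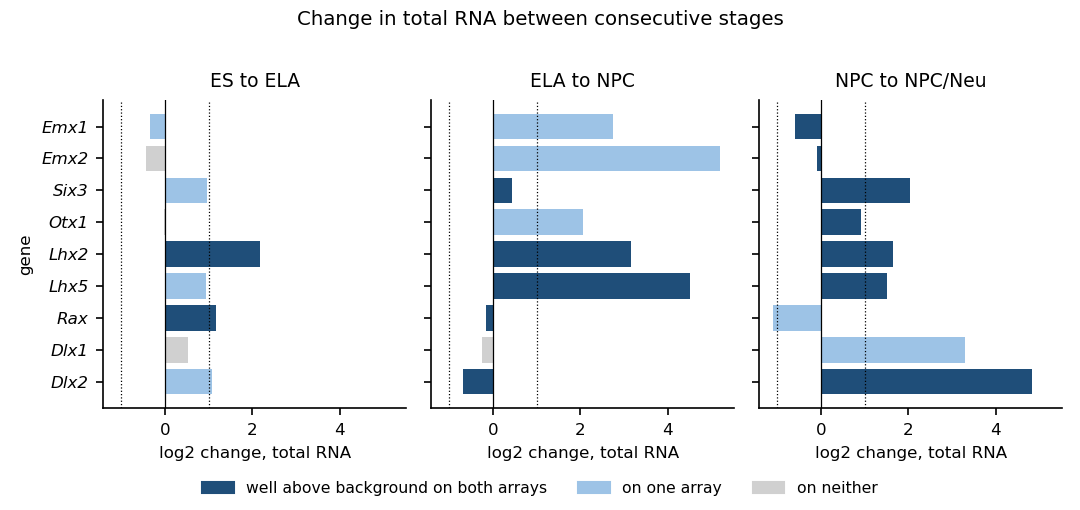
Log2 change in total RNA (horizontal axis) of each factor (vertical axis) at each of the 3 consecutive steps, with dotted lines at 2-fold and shades for whether the probe was well above background on both arrays, on one or on neither. Emx2 has the longest bar from ELA to NPC (5.20) and Dlx2 from NPC to NPC/Neu (4.84), and Rax is the only one past the lower line.

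Emx2 and Dlx2 mark the middle and the late step, so the 250 bases before their starts are shown here, 5′ to 3′ on the strand of the gene, with CG dinucleotides in capitals. Both are from RefSeq on GRCm38.p6, at chr19:59458440-59458689 on the plus strand for Emx2 and chr2:71546755-71547004 on the minus strand for Dlx2.
Emx2: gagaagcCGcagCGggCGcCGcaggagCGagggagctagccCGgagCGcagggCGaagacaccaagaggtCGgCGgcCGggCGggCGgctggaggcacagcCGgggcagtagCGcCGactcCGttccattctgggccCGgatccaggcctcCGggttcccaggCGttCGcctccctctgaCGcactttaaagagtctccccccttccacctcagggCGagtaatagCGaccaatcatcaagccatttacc
Dlx2: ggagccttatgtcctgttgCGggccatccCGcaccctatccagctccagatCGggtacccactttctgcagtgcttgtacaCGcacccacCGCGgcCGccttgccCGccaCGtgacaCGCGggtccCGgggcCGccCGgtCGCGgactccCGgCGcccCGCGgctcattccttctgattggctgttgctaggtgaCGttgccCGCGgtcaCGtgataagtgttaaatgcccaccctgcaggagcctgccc
Each window holds 24 CG dinucleotides, against a median of 6 over 32536 promoter windows of this length, of which 12.1% hold at least as many. RefSeq start sites were matched for 6 of the 9 genes (Emx1, Emx2, Six3, Lhx2, Dlx1 and Dlx2). Their windows hold from 10 CG dinucleotides in Six3 to 30 in Emx1, with 22 in Dlx1 and 25 and 24 in the 2 windows of Lhx2. The homeodomain core TAATTA, which reads the same on both strands, is in 4.84% of all windows and in none of these, and TATAAA on either strand is in 12.3% and in none of these.

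Within 20 kb of the members lie 10 other annotated genes, of which 8 were on the array, and 1 of them rose from ES to NPC/Neu. This was Six3os1, the antisense transcript that overlaps Six3, with log2 6.48 in ES, 6.66 in ELA, 7.54 in NPC and 9.16 at NPC/Neu. It was first well above background in NPC and, like Six3, highest in NPC/Neu, 3.07-fold above NPC. The Six3 probe lies outside the span of Six3os1. Emx2os, which lies 55 bases from Emx2 on the opposite strand, was log2 6.74, 6.64, 7.23 and 7.23. Its difference of 0.49 between ES and NPC/Neu was under 2-fold. Dlx1as was log2 6.41, 6.38, 6.45 and 7.01, well above background in NPC/Neu only. Metap1d, a methionine aminopeptidase gene 2.9 kb from Dlx1, was log2 10.65 in ES and 10.28 in NPC/Neu. These neighbors were chosen by distance, with the members' values known.

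For each member the genes with the most similar course in total RNA were found among 17071 gene names well above background on at least 1 total RNA array. Likeness was the root mean square difference (RMS, log2) of the changes from ES at ELA, NPC and NPC/Neu. With 4 stages and 1 array each, it is a description. Changes between values not well above background also enter it, for Dlx1 those at ELA and NPC, and for Emx2 and Otx1 that at ELA. Dlx1 was closest to Gsx1, a homeobox gene of ventral telencephalic progenitors (RMS 0.11), and to Bcl11b, a zinc finger gene of striatal and corticospinal neurons (0.23). Lhx5 was closest to Zfp503 (0.23) and Dmrta2, a regulator of the dorsal telencephalon (0.35). Nearest to Lhx2 were Samd14 (0.33) and Fam181b (0.35), and nearest to Emx2 were Vtn, which encodes vitronectin (0.31), and the retinoic acid hydroxylase gene Cyp26b1 (0.33). Few gene names had a course this similar, with 3 within 0.5 of Lhx2, 6 of Lhx5, 7 of Emx2 and 1 of Dlx2. For Dlx2 these nearest names were Cnr1, the cannabinoid receptor (0.38), and then Rcan2 (0.65). The other members had more similar names, with 35 within 0.5 of Dlx1, 76 of Six3, 148 of Emx1, 187 of Otx1 and 250 of Rax. The pairs nearest to these were Adcy1 (0.04) and the neuronal kinesin gene Kif5c (0.09) for Six3, Fgfr3 and Vcam1 (0.17 each) for Emx1, Abca3 (0.09) and Adamts7 (0.10) for Otx1, and Hist1h4m (0.10) and Dgat2l6 (0.11) for Rax.

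To place the members among other regional genes, lists for the regions of the neural tube were described in the same way. Of 18 other dorsal, early telencephalic or anterior factors, 14 rose from ES to NPC and 15 from ES to NPC/Neu. Their median change from ES to NPC/Neu was 4.46, beside 3.56 for the 9 members and -0.02 for all gene names. With processed intensity, quantile normalized, the medians were 6.55 for this list and 6.71 for the members. Nr2f1, which patterns cortical areas and is also expressed outside the forebrain, had the largest rise, from log2 7.11 in ES and 7.51 in ELA to 15.40 in NPC and 16.18 in NPC/Neu. Hesx1, an early anterior gene, fell from 8.38 in ES and 8.45 in ELA to 6.85 in NPC and 6.77 in NPC/Neu, both not well above background. The dorsal and anterior list thus shared the step from ELA to NPC with Emx1, Emx2, Otx1, Lhx2 and Lhx5. Of its 18 genes, 14 rose there.

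Of 14 other ventral forebrain factors, 4 rose from ES to NPC and 10 from ES to NPC/Neu, with median changes of 0.27 and 1.79. At the last step alone 9 of 14 rose, the step at which Dlx1 and Dlx2 did. Lhx6, a gene of interneurons from the medial ganglionic eminence, was log2 8.82, 8.38, 8.78 and 9.03. It had the smallest change of the list's genes well above background in ES or NPC/Neu. Nkx2-1, which marks that eminence, was not well above background on any total RNA array. Among the genes that rose from ES to NPC/Neu were Gad2, by 3.75, and Gsx1, by 3.41. Lhx8 was well above background in NPC (7.59) and NPC/Neu (7.44).

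The eye list differed from the other forebrain lists. Of its 7 genes 1 rose from ES to NPC and 0 from ES to NPC/Neu (no test was possible), with a median of 0.22, beside the transient course of Rax. Vax2 had the largest difference upward, 0.57, from log2 12.32 to 12.89, and Mitf fell from 10.01 to 8.15. Six6 and Tbx5 were not well above background on any total RNA array.

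Genes of more posterior regions were present as well. Of 14 midbrain and hindbrain genes, 8 rose from ES to NPC and 5 from ES to NPC/Neu, with medians of 1.60 and 0.37. Irx3 rose from log2 7.11 to 12.38 in NPC and 12.71 in NPC/Neu, and Gbx2 fell from 11.14 to 9.93 and 9.39. Of 14 spinal cord and posterior genes, 4 rose to NPC and 7 to NPC/Neu, with medians of 0.60 and 0.94. Hoxc9, a gene of the thoracic cord, was log2 6.55, 6.61, 8.94 and 9.95, while Cdx1 fell from 8.35 in ES to 6.55 in NPC/Neu. The RNA of these cultures held transcripts of forebrain and of posterior genes, and bulk arrays do not show whether they were in the same cells. Pax6 is in both the dorsal and anterior list and the progenitor list. Six6 is in the dorsal and anterior list and the eye list, and Pax2 in the eye and the midbrain list.

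**Figure D3:**
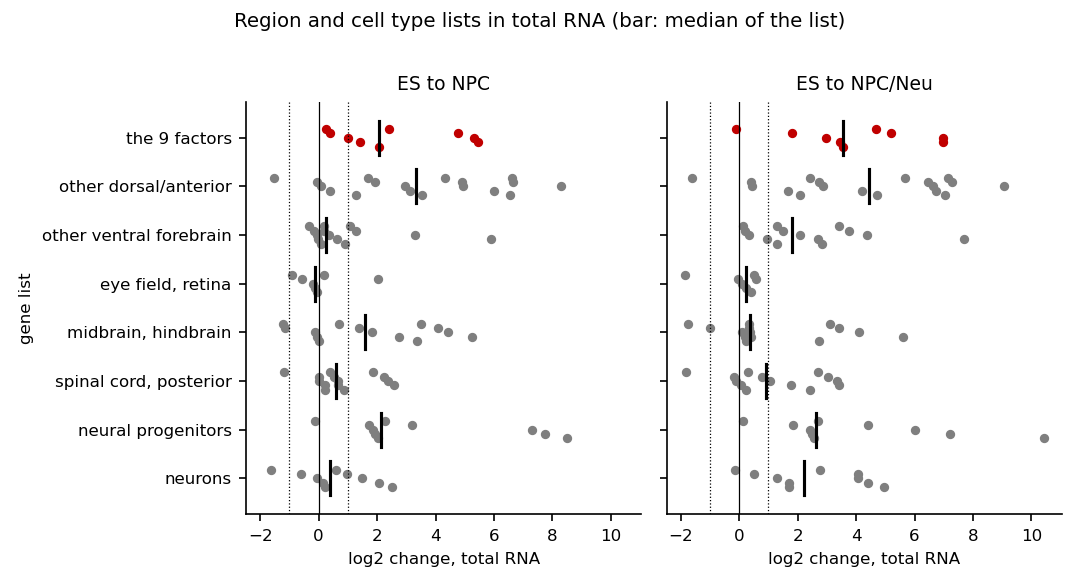
Log2 change in total RNA (horizontal axis) from ES to NPC (left) and to NPC/Neu (right) for the genes of 8 lists (vertical axis), 1 point per gene, with the median of each list as a bar and dotted lines at 2-fold. The 9 factors are in red, the dorsal and anterior list has medians of 3.33 and 4.46, the ventral list 0.27 and 1.79, and the eye list -0.12 and 0.22.

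The second readout was Ago enrichment (E), the log2 signal in Ago–RNA minus that in total RNA. Spot noise gave E an SD of 0.18 to 0.21 for probes below log2 8, 0.10 to 0.15 between 8 and 10, and 0.06 to 0.08 above 10. Binding was called above T1, an Ago–RNA signal of log2 7.82 set from a mixture of 2 Gaussian distributions. Above T1 lay 1 member in ES (Lhx2), 4 in ELA and 8 each in NPC and NPC/Neu. Of all 36163 gene names, 17097, 17168, 17097 and 17109 lay above it in the same order. T1 is a cut on Ago–RNA signal and not on E, and in total RNA 3, 5, 8 and 8 members were well above background. Dlx1 was below T1 until NPC/Neu, and Rax was below T1 in NPC/Neu.

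With this processing, Ago–RNA and total RNA of a factor differed by less than 2-fold at every stage with 1 exception, Dlx2 in NPC. In ES and ELA this changed with the processing. With processed intensity, quantile normalized, E in ES was -2.54 for Emx1, 2.44 for Six3, 1.77 for Dlx2, 1.46 for Lhx2 and 1.08 for Lhx5, and E in ELA was 1.27 for Emx1 and -1.98 for Dlx1. The median E of the 9 was 0.11 in ES, 0.04 in ELA, 0.34 in NPC and 0.00 at NPC/Neu, beside 0.03, 0.00, 0.02 and 0.03 for all gene names and 0.09, -0.01, 0.06 and 0.12 for gene names above T1. Probes well above background on both arrays numbered 2, 5, 8 and 8 in the same order, so E in ES rests mostly on dim spots. No member reached E of 2, the enrichment threshold of the methods, at any stage, except Six3 in ES under that alternative, where its total RNA was not well above background. E of at least 1 was found for 0 of 9 members in ES (4 with processed intensity, quantile normalized), where 6.56% of all gene names had it, for 0 in ELA (2.45%), for 1 in NPC (3.60%) and for 0 in NPC/Neu (7.34%).

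Lhx2 had Ago–RNA signals of log2 8.35 in ES, 9.57 in ELA, 13.04 in NPC and 14.74 at NPC/Neu, and E of 0.87, -0.08, 0.24 and 0.27. In ES alone it lay outside the quartiles of gene names above T1, which were -0.50 and 0.66 there. Lhx5 had Ago–RNA signals of 7.18, 8.20, 12.47 and 13.92, with E of 0.26, 0.34, 0.10 and 0.03. From ES to NPC/Neu the Ago–RNA of Lhx5 rose by 6.74 on the log2 scale, and its E stayed between 0.03 and 0.34.

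Emx2 had Ago–RNA signals of log2 6.14, 6.09, 11.59 and 10.48 and E of -0.43, -0.06, 0.24 and -0.78. From NPC to NPC/Neu its total RNA stayed within 2 spot SD while its Ago–RNA fell by 2.15-fold, and E changed by -1.01 with all 4 spots well above background. Emx1 had Ago–RNA signals of 6.58, 6.94, 9.90 and 8.76. Its Ago–RNA fell 2.21-fold at the last step, total RNA was 1.52-fold lower, and E went from 0.34 to -0.21. Six3 had Ago–RNA signals of 7.31, 8.19, 8.84 and 10.18 with E of 0.60, 0.50, 0.71 and 0.00, and Otx1 6.56, 6.91, 9.07 and 9.31 with E of -0.08, 0.27, 0.37 and -0.31. For these 4 genes E was positive in NPC and at or below 0.00 in NPC/Neu, with changes between -0.54 and -1.01, but with Ago–RNA and total RNA arrays normalized separately E of Six3 in NPC/Neu was 0.33.

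Dlx2 had the largest shift. Its Ago–RNA was log2 6.98 in ES, 7.29 in ELA, 8.17 in NPC and 12.29 at NPC/Neu, and E was 0.34, -0.41, 1.16 and 0.44. From ELA to NPC total RNA was 1.62-fold lower while Ago–RNA was 1.84-fold higher, neither change reaching 2-fold by itself, and E changed by 1.57. All 4 spots were well above background, but the total RNA signal in NPC was only log2 7.01, where the spot SD of a change in E is 0.25 to 0.30. Dlx1, at 6.48, 6.49, 6.71 and 9.92 in Ago–RNA, had E of -0.02 at NPC/Neu, the single stage at which it was well above background. Rax had Ago–RNA signals of 6.94, 8.11, 8.42 and 7.06 and E of 0.02, 0.04, 0.51 and 0.24, so its transient course was seen in both RNA populations.

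A change of E of at least 1 in size was found for 0 members from ES to ELA, beside 9.61% of all gene names. This count was 4 with an offset of 0 and 5 with processed intensity. From ELA to NPC it was found for 1 member (Dlx2), beside 4.44%, and from NPC to NPC/Neu for 1 (Emx2), beside 4.76%. Lhx2 came closest below the limit, with -0.95 from ES to ELA. The Ago–RNA change and the total RNA change had the same sign in 7 of 9 members from ES to ELA, in 6 from ELA to NPC and in 9 from NPC to NPC/Neu. The share of all gene names with the same sign was not counted. Some signs came from dim probes, not well above background at either stage: Emx2, Otx1 and Dlx1 from ES to ELA, and Dlx1 from ELA to NPC. The members with opposite signs from ES to ELA were Emx1 and Otx1. At that step Emx1 was well above background only in total RNA of ES. No member changed by 2-fold or more in opposite directions in both populations at any step.

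**Figure D4:**
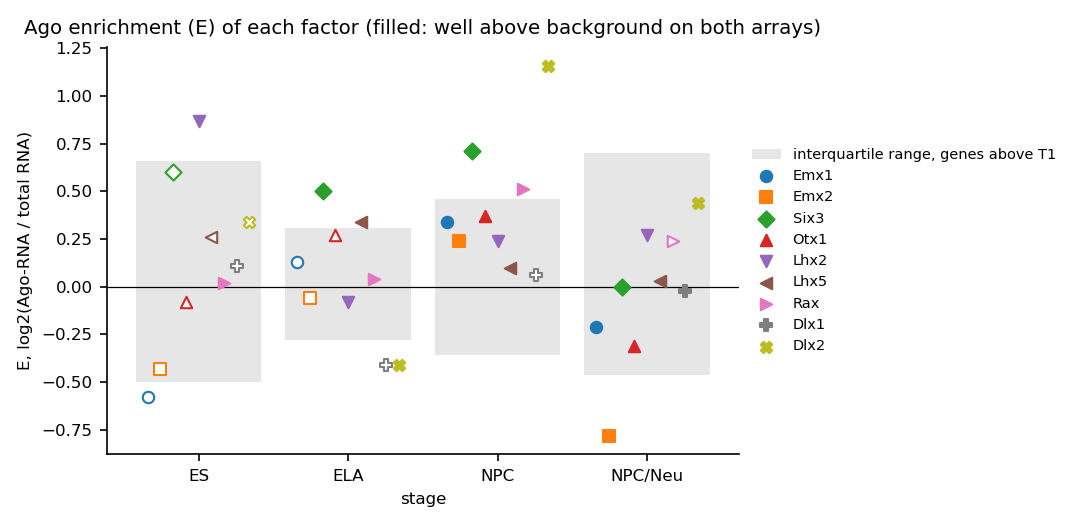
E (vertical axis, log2 Ago–RNA minus log2 total RNA) of each factor at the 4 stages (horizontal axis), with filled symbols where both arrays were well above background and grey bands for the interquartile range of gene names above T1. All 9 factors are above 0 in NPC, Dlx2 is highest there at 1.16, and Emx2 is lowest in NPC/Neu at -0.78.

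Since Ago binding is guided by miRNA seeds, the 3′ UTRs of the members were searched for 7-base matches to the seeds (bases 2 to 8) of 4 miRNAs, taken from a list drawn up with earlier results of these data known. They are shown from RefSeq (GRCm38.p6) with the seed in capitals, because their seeds define the sites below. The miRNAs themselves were not analysed here, and miR-302a-3p and miR-124-3p were not searched.
let-7a-5p: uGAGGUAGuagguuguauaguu
miR-9-5p: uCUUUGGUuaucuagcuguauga
miR-125b-5p: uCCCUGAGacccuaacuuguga
miR-17-5p: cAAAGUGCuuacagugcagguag
Of 36 pairs of a member and a miRNA, 3 had a match, 1 each in Six3 (let-7a-5p), Lhx5 (miR-9-5p) and Dlx2 (miR-125b-5p). None of the 9 had a match to miR-17-5p. The 3 sites are given with the bases around them, on the mRNA strand of the mm9 transcripts and with the match in capitals.
Six3, base 3913 of a 3′ UTR of 4096 bases: tgcagccacaactacCTACCTCtttctgga
Lhx5, base 154 of 1132: gcgcaatttctcgggACCAAAGtcaatatt
Dlx2, base 310 of 1111: cccctcagcgtgatcCTCAGGGtccttggt
Among genes whose longest annotated 3′ UTR was 0.8 to 1.2 times as long, a match to the same miRNA was found in 23.7% for Six3, 10.4% for Lhx5 and 12.2% for Dlx2. Over all 36 pairs this share ran from 2.1% (Emx1, miR-17-5p) to 33.8% (Six3, miR-9-5p). For miR-17-5p it reached 31.0% in Six3. Of all genes with a 3′ UTR, 8.81% had a match to let-7a-5p, 11.4% to miR-9-5p and 12.6% to miR-125b-5p. Whether the members' matches were more or fewer than these shares give was not tested. The 3 genes with a match differed in E. In NPC it was 0.71 for Six3, 0.10 for Lhx5 and 1.16 for Dlx2, and in NPC/Neu 0.00, 0.03 and 0.44. Emx2, whose E changed by -1.01, had no match to these 4 seeds in a 3′ UTR of 1310 bases. A match is a description of the letters, and no match says nothing about other miRNAs.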

How the data were processed

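Total RNA and Ago–RNA of 4 stages were measured on 8 Agilent one-color arrays (annotation mm9), which all lay on 1 slide. The authors deposited spot intensity as Feature Extraction 10.7.3.1 wrote it (per the file headers; the submitters' processing notes name version 9.1), not normalized between arrays. Background was removed from the mean intensity by the normexp method (offset 50; limma 3.58.1, R 4.3.3), spots marked irregular were dropped, and quantile normalization was applied to the log2 values of all 8 arrays together. This removes any difference in overall RNA recovery. Repeated spots, and then probes of a gene name, were averaged. T1 was set 3 SD above the mean of the dimmer Gaussian component of 2 (mclust 6.1.1). Other values came from Python 3.11.15, numpy 2.4.6 and pandas 2.3.3. With 1 array per condition no test was run, and this number limits the precision. The code that applies the 2-fold rule was tested on simulated data, which checks the code and not whether 2-fold suits real arrays.

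The members and the gene lists were chosen with earlier results of these data known. Genes named beside the members are the 2 gene names with the most similar course to each member and, of each list, the genes with the largest and smallest change from ES to NPC/Neu among those well above background on at least 1 of both arrays, of which 1 is not reported here. Exceptions are Nkx2-1, Six6 and Tbx5, named as undetected, and neighboring genes. Gad2, Gsx1 and Lhx8 are also named from the ventral list, Esrrb and Zfp42 from the pluripotency list, and Tubb3, Nefl and Stmn2 from the neuronal list. Map2 and Tfap2b are listed on the array as Mtap2 and Tcfap2b. Positions are from GENCODE on mm9, promoters and miRNAs from RefSeq on GRCm38.p6. The alternatives tried were offsets of 16 and 0, processed intensity scaled by quantiles or by the 75th percentile, separate normalization of the arrays of each RNA population, restriction to probes well above background, and the brightest probe of a gene.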

Additional observations from a re-analysis of the deposited data

How the results depend on the processing

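No sign of a change in total RNA of a member counted with the reported processing turned under any alternative. Emx2 from ES to ELA, counted as a fall with an offset of 0 only (-1.11), was 0.27 and 0.69 with processed intensity by quantile and by the 75th percentile. With an offset of 16 the members that rose from ES to ELA went from 3 to 5, and with an offset of 0 or processed intensity, by quantile or by the 75th percentile, to 6. Members with a change of E of at least 1 in size from ES to ELA went from 0 to 2 with an offset of 16, to 4 with an offset of 0 and to 5 with processed intensity by either scaling. From ELA to NPC they went from 1 to 2 with processed intensity by either scaling, and from NPC to NPC/Neu from 1 to 2 with an offset of 0 or processed intensity by quantile. Using only probes well above background on both arrays leaves fewer members. From ELA to NPC these were Six3, Lhx2, Lhx5, Rax and Dlx2, of which 2 rose (Lhx2 and Lhx5). From ES to NPC only Emx1, Lhx2 and Rax were left, and all 3 rose. From ES to NPC/Neu only Emx1 and Lhx2 were left, and these 2 rose. Scaling to the 75th percentile moved the median E of all probes to -0.64, -0.32, 0.01 and -0.35 at the 4 stages (0.02, 0.00, 0.01 and 0.02 as reported), and the members' median E in ES to -0.66. It was 0.45 with only probes well above background, which left Lhx2 and Rax. With separate normalization it was 0.58 in NPC and 0.27 in NPC/Neu.

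The median rise from ES to NPC/Neu depended on the treatment of dim spots. The settings were offsets of 16 and 0, processed intensity by quantile and by the 75th percentile, and only probes well above background. In this order it was 4.27, 4.83, 6.71, 6.82 and 4.40 for the members, the last from Emx1 (1.81) and Lhx2 (6.99) alone. For the dorsal and anterior list it was 4.92, 5.22, 6.55, 6.12 and 2.79. It was 2.32, 2.85, 3.58, 3.60 and 1.39 for the ventral list, and 1.35, 1.78, 2.56, 2.67 and 1.47 for the spinal list. The last setting left fewer genes in these lists as well. The dorsal and anterior list had 5.49 with the brightest probe. The midbrain and hindbrain list had 0.65 with an offset of 0, 1.05 by quantile and 1.09 by the 75th percentile. The cause of these shifts was not tested. The change of E of Emx2 from NPC to NPC/Neu lay between -1.01 and -1.09 in all settings, and that of Dlx2 from ELA to NPC between 1.57 and 2.70. With the 75th percentile E in ES was -3.30 for Emx1, 1.66 for Six3 and over 1 for Dlx2, and in ELA -2.03 for Dlx1 and below -1 for Dlx2. With an offset of 0 E in ES was -1.02 for Emx1, -1.15 for Emx2 and 1.11 for Lhx2 (1.02 with an offset of 16).

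Limits: each value is 1 array of pooled RNA, so neither variation between cultures nor between immunoprecipitations is known. In total RNA 3 of the 9 members were well above background in ES and 5 in ELA, and below it order and E carry little. Bulk RNA does not show which cells held a transcript. No paired analysis was possible because each group has 1 sample.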

Other observations

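Genes of other lineages were described in the same way. Of 8 neural crest and surface ectoderm genes 3 rose from ES to NPC/Neu, with a median of 0.60, and Tcfap2b, which encodes AP-2 beta, was log2 6.22 in ES, 6.47 in ELA, 12.10 in NPC and 13.92 at NPC/Neu. Foxd3, a gene of ES cells and of neural crest, fell from 12.60 in ES and 12.59 in ELA to 6.48 in NPC and 7.29 in NPC/Neu. Of 10 mesoderm and endoderm genes 3 rose and 1 fell, with a median of 0.32. Foxa2, a gene of endoderm and floor plate, rose from 6.76 in ES to 8.01, 9.55 and 10.10, and Myl7, a cardiac myosin gene, went from 8.84 in ES to 6.49.

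Of 7 glial genes 2 rose, with a median of 0.61. Olig1, of the oligodendrocyte lineage, was log2 6.71 in ES and 8.78 in NPC/Neu, and the astrocyte gene Gfap was 6.93 and 6.81. Among neuronal genes Mtap2 rose from 8.17 in ES to 13.13 in NPC/Neu, and Neurod1 was 9.25, 8.93, 7.63 and 9.11 at the 4 stages. Klf4 had the smallest fall of the 7 pluripotency genes, from 12.86 in ES to 10.90 in NPC/Neu.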
